A study of Mus musculus with 4 samples.

Results

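The BCL2 family of survival genes was examined in bone marrow hematopoietic stem and progenitor cells (HSPCs) of the mouse. Its 8 members here were the antiapoptotic genes Bcl2, Bcl2l1 and Mcl1, the BH3-only genes Bcl2l11, Bbc3 and Bmf, and the effector genes Bax and Bak1. They were taken by gene symbol, as 8 of the 32272 genes in the matrix. Chromatin was described through the 165 of 174339 peaks that lay within 50 kb of the annotated transcript starts of a member. The cells came from young adult male C57BL/6 mice whose molars carried a silk ligature for 14 days (Lig), which sets off periodontitis, or had none (Ctrl). Lineage-negative, cKit-positive marrow cells were sorted and their nuclei profiled for RNA and open chromatin (ATAC) together, and several mice were pooled per group. GEO's labels gave 4 samples, the RNA and the ATAC library of 1 Ctrl and of 1 Lig pool, so there were no replicates. Nuclei of both pools shared 1 matrix with 2 barcode suffixes, and no label said which suffix belonged to which pool. The suffixes are named library 1 and library 2, belong to no group here, and differences between them cannot be assigned to ligature.

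Cells die by the mitochondrial pathway when BAX or BAK1, the effectors, form pores in the outer mitochondrial membrane and release cytochrome c. Antiapoptotic members hold the effectors and their activators in check, and BH3-only members, which respond to stress or to loss of growth factors, bind the antiapoptotic members or activate the effectors directly. In blood formation, BCL2 and MCL1 are known to keep stem and lymphoid cells alive, BCL-XL, the product of Bcl2l1, protects late erythroid and early B-lineage cells, and BIM, the product of Bcl2l11, removes unneeded or self-reactive lymphocytes.

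A nucleus entered with 200 or more genes and 1000 to 50000 counts in peaks, which gave 5905 nuclei in library 1 and 7714 in library 2. These held 10294527 and 12537328 unique molecular identifiers (UMIs, 1 per RNA molecule counted), with medians of 1641 and 1516.5 per nucleus. Of the barcode sequences, 72 occurred in both libraries among kept nuclei. Ribosomal RNA locus genes took 43.0% and 53.2% of the UMIs, and levels are therefore given as CPM, UMIs scaled to a common total of UMIs outside that locus. Clusters were built with the BCL2 family and the 165 peaks left out. Of 19 clusters, 14 were named from marker genes and formed 13 classes, among them HSC-like (stem cell), LMPP-like (lymphoid-primed multipotent progenitor), GMP-like (granulocyte-monocyte progenitor), NeuP-like (neutrophil progenitor), EryP-like (erythroid progenitor), MkP-like (megakaryocyte progenitor) and BaP-like (basophil progenitor). The others were cMoP-like (monocyte progenitor), cDCP-like and pDCP-like (conventional and plasmacytoid dendritic cell progenitor), pro-B-like, B-like and pro-NK/T-like. Clusters 4 and 10 were both pro-B-like, and 5 stayed unnamed under their numbers. The sorting marker Kit was detected at 242 CPM in library 1 and 157 CPM in library 2, highest in EryP-like nuclei with 560 and 402 CPM and at 2 and 1 UMIs in cMoP-like nuclei. B-like nuclei, 3.25% of library 1 and 1.08% of library 2, carried Ms4a1 and Ighd, markers of mature B cells. NeuP-like nuclei had Ltf, Ngp, Retnlg and Mmp9 among their 10 leading genes, and how mature they were was not tested. RNA free in the droplets was not removed from any level.

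A gene was called higher or lower in a class when its level was at least 2-fold above or below that of all other nuclei of the same library, in both libraries, with at least 20 UMIs observed or expected in each. With 1 sample per group there was no test, and a call is a rule of size. Intervals are exact 95% Poisson intervals for levels and exact Clopper-Pearson intervals for shares, and they cover counting error only. Of the members, 5 had enough UMIs in some class, giving 34 pairs of a member and a class. Of these pairs, 3 were called higher, against 2.81% of all 38156 gene and class pairs, and 4 were called lower, against 2.71%. The pairs called higher were Bcl2 in cluster 6 and in pro-NK/T-like nuclei and Bcl2l11 in LMPP-like nuclei, and the pairs called lower were Bcl2 in GMP-like and pro-B-like (cluster 4) nuclei and Bcl2l11 in GMP-like and EryP-like nuclei. All calls thus belonged to Bcl2 and Bcl2l11. Bcl2l1, Bax and Bmf had no pair with enough UMIs, so that no call was possible for them, and Mcl1, Bak1 and Bbc3 had 9, 3 and 2 pairs with no call.

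**Figure D1:**
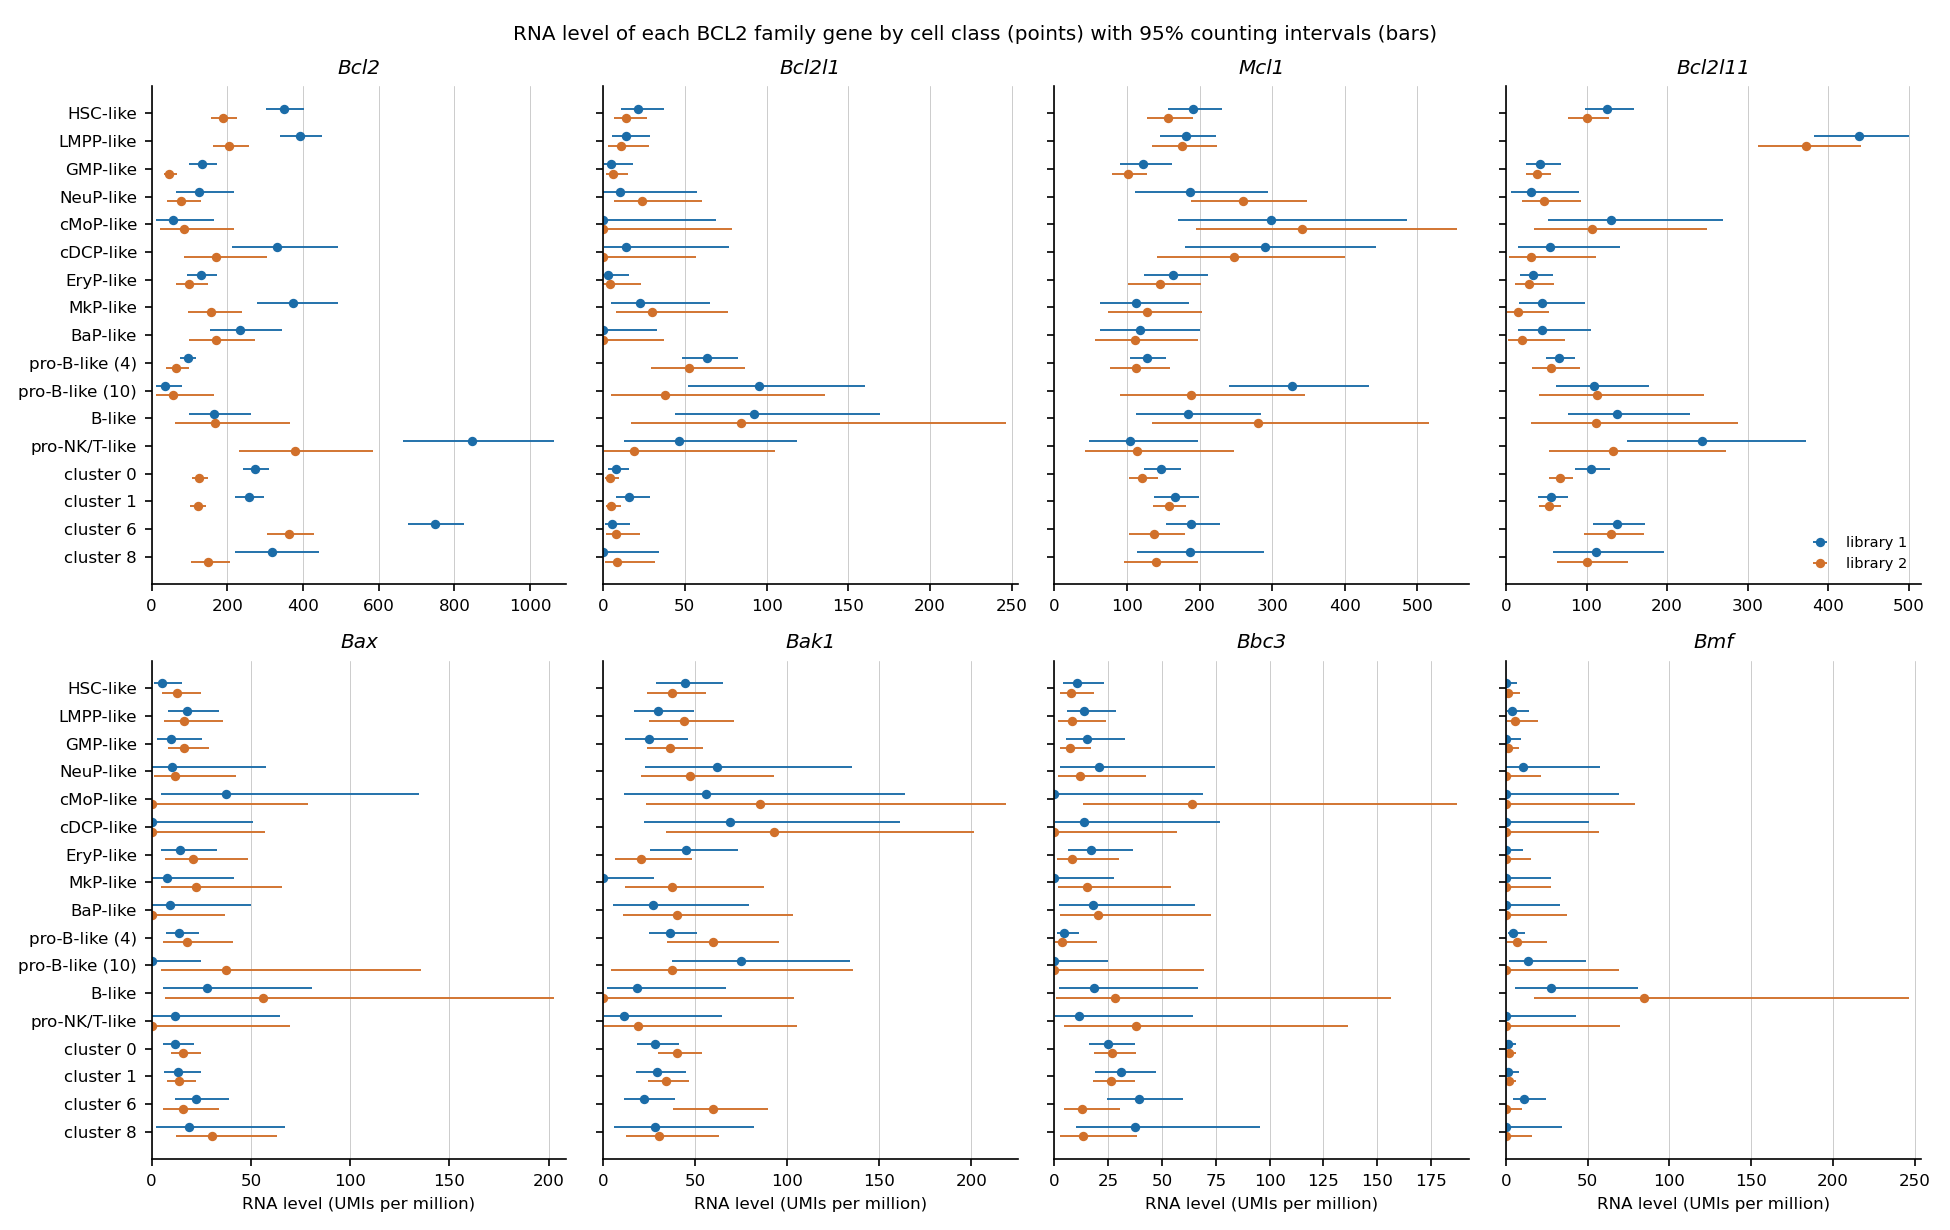
RNA level of each of the 8 genes (x axis, CPM) in the 17 classes with at least 50 nuclei in each library (y axis), with points for library 1 and library 2 and bars for 95% counting intervals. Bcl2 stood highest in pro-NK/T-like nuclei and cluster 6, Bcl2l11 in LMPP-like nuclei, and Bcl2l1 in the pro-B-like and B-like clusters.

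Across the whole of each library, the members differed widely in level per kb of gene span. Mcl1, a short gene, had 37.4 CPM per kb in library 1 and 32.7 in library 2. Bak1 followed with 3.58 and 4.40 CPM per kb. Bcl2l11 had 3.18 and 2.36 and Bax 2.62 and 3.01, so that their order differed between the libraries. The remaining genes were Bbc3 with 1.86 and 1.72, Bcl2 with 1.63 and 0.806, Bcl2l1 with 0.447 and 0.210, and Bmf with 0.163 and 0.106 CPM per kb. The order depended on the division by span, which is 176 kb for Bcl2 and 4.39 kb for Mcl1. In CPM without it, Bcl2 had 287 and Mcl1 164 in library 1, and 142 and 144 in library 2. Bmf was last on both scales in both libraries. Nuclear RNA holds unspliced transcripts, so span rather than transcript length was used, although the sources used here do not state how reads in introns were counted, and which scale is the better one was not tested.

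Bcl2 (ENSMUSG00000057329), the founding antiapoptotic member, lies on the minus strand of chromosome 1 (GRCm38, chr1:106538178-106714274). Its level was highest in pro-NK/T-like nuclei, with 846 CPM in library 1 (663 to 1064, 73 UMIs) and 378 CPM in library 2 (231 to 584, 20 UMIs). These levels were 3.04 and 2.70 times those of all other nuclei. Cluster 6 followed with 748 CPM (677 to 825, 402 UMIs) and 363 CPM (306 to 429, 140 UMIs), or 3.11 and 2.87 times the others. The next class was LMPP-like with 392 CPM (339 to 450) and 205 CPM (161 to 257). Cluster 6 was apart from it in both libraries, whereas pro-NK/T-like nuclei were apart from it in library 1 only and were not apart from cluster 6. The call in pro-NK/T-like nuclei was kept in 3 of 7 alternatives on the same clusters and lost with median-of-ratios scaling, without likely doublets and with a higher minimum of UMIs. With at least 500 genes per nucleus their levels were 868 and 234 CPM, also with no call. Cluster 6 could not be named. It was led by Ccnd1, Ephb2, Hdac9, Runx2 and Nrp1, and Bcl2 itself was among its 10 leading genes. At resolution 0.4, 96.1% of cluster 6 fell into a cluster named pDCP-like, in which Bcl2 was called higher. Cluster 6 made up 84.3% of that cluster. From RNA alone, its largest match was a cluster named cMoP-like, with 40.2% of its nuclei and no call of Bcl2. That clustering also held an unnamed cluster led by Ephb2, Hdac9, Carmil1, Runx2 and Ccnd1, in which Bcl2 was called higher. Without correction between libraries, 84.5% of cluster 6 fell into an unnamed cluster in which Bcl2 was called higher. With all genes and peaks in the clustering, 93.6% did so, also with a higher call. The RNA of Bcl2 and its peaks within 50 kb of the start were left out of the clustering, while 32 further peaks over its span and flanks were not.

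At the other end of the order, pro-B-like (cluster 10) nuclei had 34.0 and 56.4 CPM on 5 and 3 UMIs and cMoP-like nuclei 56.0 and 85.4 CPM on 3 and 4 UMIs, too few for a call. Pro-B-like (cluster 4) nuclei had 95.3 CPM of Bcl2 in library 1 (76.1 to 118) and 63.3 CPM in library 2 on 18 UMIs, which was 3.36- and 2.31-fold lower than in all other nuclei. GMP-like nuclei had 132 CPM (99.1 to 173) and 46.9 CPM (32.1 to 66.2), 2.25- and 3.30-fold lower. In NeuP-like nuclei, the level was 124 and 76.6 CPM, 2.33- and 1.88-fold lower, and in EryP-like nuclei 129 and 99.3 CPM, 2.30- and 1.45-fold lower, so that both missed the call in library 2. Lower levels of Bcl2 thus lay in GMP-like and pro-B-like (cluster 4) nuclei, whereas HSC-like nuclei had 350 and 188 CPM. Apart from the step below cluster 6, none of the 16 steps between neighbours in the order exceeded the counting intervals in both libraries. The genes D630008O14Rik, Mir3473f and Gm37053 overlap Bcl2 and could share reads with it, and the sources used here do not state whether counting used the strand.

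The sum of the peaks near the Bcl2 start was highest in pro-NK/T-like nuclei, as its RNA was, and lay near that of the other nuclei in cluster 6 and in pro-B-like (cluster 4) nuclei. For peaks, CPM stands for counts scaled to the total counts in peaks of the class, and a call needed 2-fold in both libraries with at least 100 counts observed or expected in each. Of 29 pairs of a Bcl2 peak and a class with enough counts, 0 were called higher, against 3.03% of all 237150 peak and class pairs, and 1 was called lower, against 1.71%. The peak over the start (chr1:106713856-106714760) ranged from 32.8 to 47.6 CPM in library 1 and from 16.6 to 77.5 in library 2, with its maximum in pro-NK/T-like nuclei in both and fewer than 100 counts there. The sum over the 14 peaks in pro-NK/T-like nuclei was 184 CPM (156 to 215) and 218 CPM (180 to 262), 1.36 and 1.68 times the others. In cluster 6 it was 0.995 and 1.02 times and in pro-B-like (cluster 4) nuclei 0.978 and 1.05 times the others. Across 17 classes, this sum and the RNA level had a Pearson's r of 0.08 in library 1 and 0.44 in library 2 on a log2 scale. In cluster 6, 3 of the 14 peaks had 100 counts in each library, and the largest fold among them was 1.23 and 1.19. In pro-B-like (cluster 4) nuclei, where Bcl2 RNA was lower, the peak over the start was at 1.07 and 1.20 times the level of the other nuclei. The 1 peak called lower, in the gene body 17.3 kb from the start (chr1:106695445-106696353), had 4.06 and 4.35 CPM in HSC-like nuclei, 0.415 and 0.401 times the others, and 18.3 and 15.8 CPM in cluster 0. It was at 0.836 and 1.80 CPM in pro-B-like (cluster 4) nuclei, with too few counts for a call.

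Bcl2l1 (ENSMUSG00000007659), the gene of the antiapoptotic protein BCL-XL, lies on the minus strand of chromosome 2 (chr2:152780668-152831728). It was sparse, with 134 UMIs in library 1 and 63 in library 2. Its level was highest in B-lineage nuclei. In pro-B-like (cluster 4) nuclei it was 63.6 CPM (48.0 to 82.5, 56 UMIs) and 52.7 CPM (29.5 to 87.0, 15 UMIs), 4.06 and 6.14 times the other nuclei, without a call because library 2 held fewer than 20 UMIs. Pro-B-like (cluster 10) nuclei had 95.3 and 37.6 CPM and B-like nuclei 92.1 and 84.2 CPM, on 2 to 14 UMIs each. B-like nuclei had 22.8 and 0 CPM with at least 500 genes per nucleus. Outside these 3 clusters, the highest level was 46.4 CPM in pro-NK/T-like nuclei of library 1 and 29.9 CPM in MkP-like nuclei of library 2.

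Bcl2 and Bcl2l1 guard the same step. Bcl2l1 was called in no class, and pro-NK/T-like nuclei, which had the highest Bcl2 level, also had its highest mean outside the B-lineage clusters, with 46.4 and 18.9 CPM. Within a class, the UMIs of both genes can be set against each other without a scaling, and this measure was added after the levels were seen. Bcl2l1 made up 40.0% of the UMIs of both genes in pro-B-like (cluster 4) nuclei of library 1 (56 of 140, 31.8 to 48.6%) and 45.5% of those of library 2 (15 of 33, 28.1 to 63.6%). Over all nuclei it made up 7.38% (6.22 to 8.68%) and 7.02% (5.44 to 8.90%). In cluster 6, the share was 0.741% (0.153 to 2.15%) and 2.10% (0.435 to 6.01%), and in LMPP-like nuclei 3.43% (1.39 to 6.94%) and 5.06% (1.40 to 12.5%). The pro-B-like intervals lay above those of all nuclei, cluster 6 and LMPP-like nuclei in each library. The intervals of pro-B-like (cluster 4) nuclei overlapped those of B-like, cMoP-like and NeuP-like nuclei in both libraries. NeuP-like nuclei had 7.69% (0.195 to 36.0%) and 23.5% (6.81 to 49.9%). Pro-B-like (cluster 10) nuclei lay just above cluster 4 in library 1 (48.8 to 90.9%) and overlapped it in library 2 (5.27 to 85.3%). In library 2, cluster 4 also overlapped MkP-like nuclei (4.54 to 36.1%), cDCP-like nuclei (0 to 28.5%), pDCP-like nuclei and cluster 18. Since Bcl2 spans more DNA than Bcl2l1, the share compares classes and not the amounts of the proteins.

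**Figure D2:**
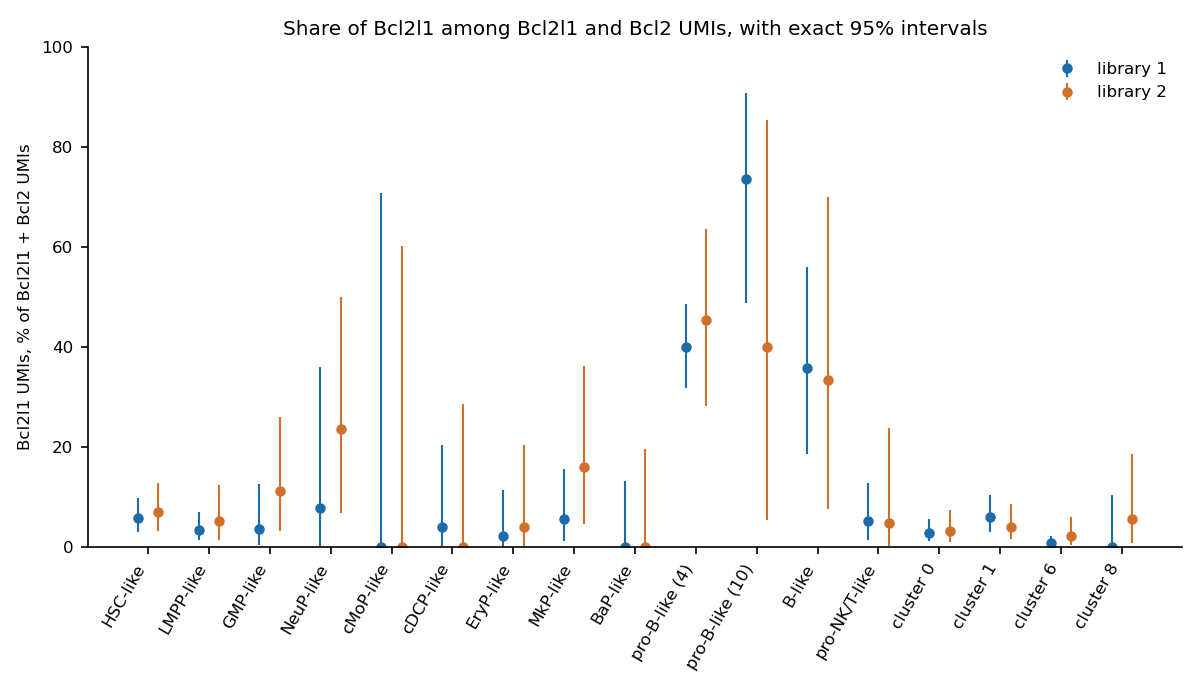
Share of Bcl2l1 among the UMIs of Bcl2l1 and Bcl2 (y axis, %) in each class (x axis), with points for library 1 and library 2 and bars for exact 95% intervals. Pro-B-like (cluster 4) nuclei sit at 40.0% and 45.5%, against 7.38% and 7.02% over all nuclei.

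Bcl2l1 RNA had too few UMIs in library 2 for a call in pro-B-like (cluster 4) nuclei. Of all peaks tested in this class, 13.6% were called higher. Of the 17 peaks of Bcl2l1, 6 had 100 counts of the class in each library, and 2 were called higher. The first, inside the gene and 35.7 kb downstream of the start (chr2:152794128-152795051), had 60.8 CPM in library 1 (55.7 to 66.3) and 47.3 in library 2 (39.9 to 55.7), 12.7 and 20.7 times the other nuclei. It was also at 67.4 and 68.2 CPM in pro-B-like (cluster 10) and at 46.6 and 50.4 in B-like nuclei. In none of the 14 other classes did it exceed 4.18 CPM in library 1 or 4.36 in library 2. The second, 13.9 kb downstream (chr2:152815982-152816742), had 21.2 and 21.9 CPM, 5.16 and 8.96 times the others. The peak over the start (chr2:152831038-152831904) varied only 2.24-fold in both libraries and had no call. Another called peak, 41.2 kb downstream (chr2:152788784-152789401), was highest in MkP-like nuclei with 47.4 and 37.9 CPM, 2.13 and 2.21 times the others. The first peak was called lower in clusters 0 and 1 and the second in cluster 0, with 0.855 to 1.49 CPM there, and with at least 500 genes per nucleus these had too few counts for a call. Across 17 classes, the summed counts of the 17 peaks and the RNA level had a Pearson's r of 0.65 in library 1 and 0.70 in library 2 on a log2 scale, a description of classes that share library and depth.

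Most of the higher calls at peaks of the family were in pro-B-like (cluster 4) nuclei. Of 47 member peaks with enough counts in this class, 9 (19.1%) were called higher, against 13.6% of all 17073 peaks tested there, and 4 (8.51%) were called lower, against 5.72%. As 13.6% of all peaks were higher in this class, the share near the BCL2 family was not far from that of the genome. The 9 peaks belonged to 4 genes, 3 to Bcl2l11 and 2 each to Bcl2l1, Bak1 and Bmf. All lay over 1 kb from the start and 8 lay over 10 kb away. Most of the window of 50 kb lies over 10 kb from the start, so these distances do not set the peaks apart. The peaks called lower were 2 at Bax, 1 at Mcl1 and 1 at Bbc3. With at least 500 genes per nucleus, 2 of the 9 higher calls were kept, as they were with at least 200 counts, the largest peak of Bcl2l1 and that of Bmf 47.6 kb from its start. None of the 4 lower calls was kept in either setting. The other pairs had too few counts to be called, and with at least 500 genes all 9 higher and all 4 lower ones were still past 2-fold in both libraries. Over all classes, 15 of 496 member pairs were called higher (3.02%) and 10 lower (2.02%), close to the 3.03% and 1.71% of all peaks.

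The central 300 bases of the pro-B-like peak with the largest fold at each of these 4 genes follow, read from the plus strand of GRCm38, because these peaks were called higher in pro-B-like nuclei. Counts were taken over whole peaks, so which bases within them differed was not measured. Capitals mark matches on either strand to CCCNNGGGA, a core bound by EBF1, and to the E-boxes CAGCTG and CAGGTG, which E2A proteins bind.
Bcl2l1, chr2:152794440-152794739: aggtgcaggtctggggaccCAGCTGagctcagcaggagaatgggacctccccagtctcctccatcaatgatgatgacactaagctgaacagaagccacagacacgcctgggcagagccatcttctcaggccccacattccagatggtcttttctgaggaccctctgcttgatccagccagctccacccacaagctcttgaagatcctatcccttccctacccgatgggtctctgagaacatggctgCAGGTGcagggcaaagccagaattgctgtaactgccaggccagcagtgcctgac
Bcl2l11, chr2:128094331-128094630: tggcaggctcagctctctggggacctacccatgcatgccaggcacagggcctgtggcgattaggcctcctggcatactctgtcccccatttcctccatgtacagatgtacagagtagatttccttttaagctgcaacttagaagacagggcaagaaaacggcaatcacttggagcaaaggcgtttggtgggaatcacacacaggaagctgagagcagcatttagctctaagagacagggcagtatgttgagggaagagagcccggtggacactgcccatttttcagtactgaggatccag
Bak1, chr17:26983083-26983382: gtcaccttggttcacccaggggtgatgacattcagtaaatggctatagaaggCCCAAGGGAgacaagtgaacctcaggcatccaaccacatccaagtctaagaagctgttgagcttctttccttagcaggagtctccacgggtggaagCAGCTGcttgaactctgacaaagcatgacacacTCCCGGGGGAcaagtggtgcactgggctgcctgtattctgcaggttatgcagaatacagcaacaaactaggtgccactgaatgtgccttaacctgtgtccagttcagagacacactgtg
Bmf, chr2:118499301-118499600: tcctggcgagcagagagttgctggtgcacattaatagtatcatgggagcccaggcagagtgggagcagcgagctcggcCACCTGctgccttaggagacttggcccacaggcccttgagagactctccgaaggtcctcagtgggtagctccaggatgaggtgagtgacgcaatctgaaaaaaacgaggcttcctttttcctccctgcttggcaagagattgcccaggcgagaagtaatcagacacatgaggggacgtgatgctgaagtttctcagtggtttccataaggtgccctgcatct
The 4 sequences differed in these letters. Bak1 held CCCNNGGGA at 3 positions, 2 of which overlap each other, and 1 CAGCTG, Bcl2l1 held 1 CAGCTG and 1 CAGGTG, Bmf held 1 CAGGTG on the other strand, and Bcl2l11 held none. Among the centres of all 174282 peaks with sequence, 5.71% held CCCNNGGGA, 19.7% CAGCTG and 19.4% CAGGTG. Among the 2325 peaks called higher in pro-B-like (cluster 4) nuclei, these shares were 24.0%, 41.5% and 35.9%. A match is a description of letters and not a bound site.

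**Figure D3:**
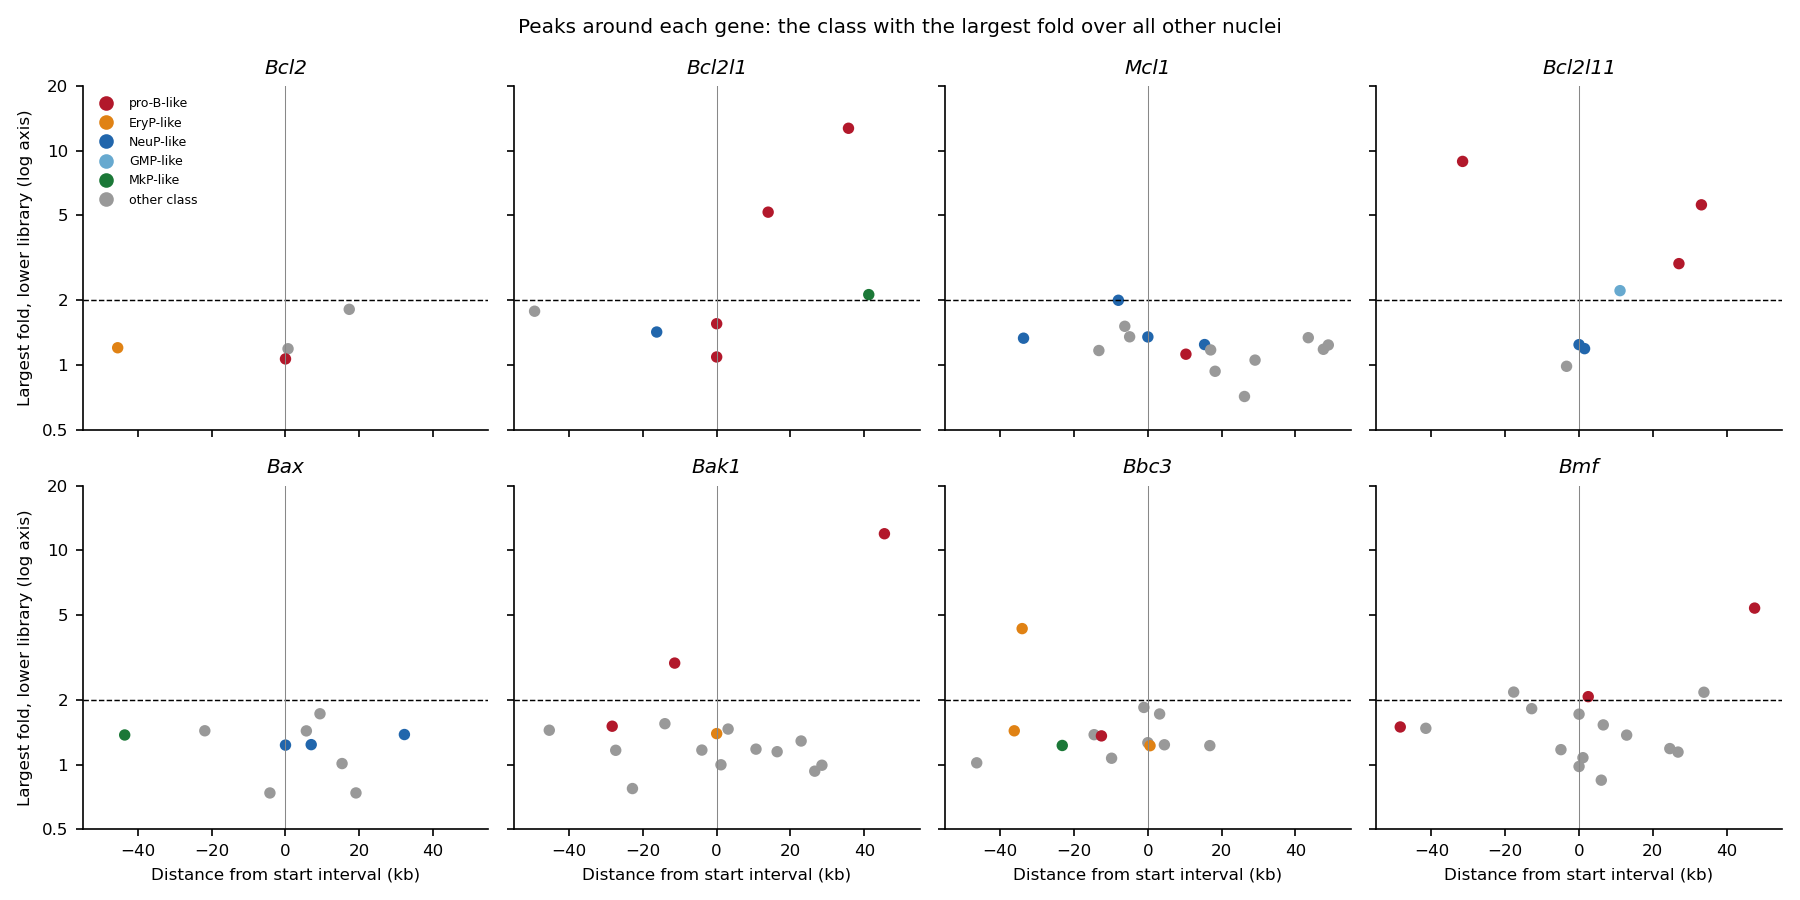
Peaks within 50 kb of each gene by distance from the start interval (x axis, kb, downstream positive) and by the fold of the class with the largest fold over all other nuclei, in the library where that fold was smaller (y axis, log scale). The 88 points are peaks with 100 counts of a class in each library, coloured by that class, and the dashed line marks 2-fold. Red points of pro-B-like nuclei reach 12.7 at Bcl2l1 and 11.9 at Bak1, and no point at Bcl2 or Bax passes the line.

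Mcl1 (ENSMUSG00000038612), whose short-lived protein neutralises BIM and BAK1 and is needed by stem cells and neutrophils alike, lies on the plus strand of chromosome 3 (chr3:95658788-95663176). Its class levels spanned 104 to 327 CPM in library 1 and 101 to 342 CPM in library 2, a range of 3.13- and 3.38-fold. No class was called in its 9 pairs. The highest mean was that of cMoP-like nuclei with 299 CPM (171 to 485, 16 UMIs) and 342 CPM (195 to 555, 16 UMIs), followed by cDCP-like nuclei with 290 and 247 CPM. The levels in cMoP-like nuclei were 218 and 109 CPM with at least 500 genes per nucleus. NeuP-like nuclei had 186 CPM (110 to 294) and 259 CPM (188 to 348), while GMP-like nuclei had 122 CPM (90.5 to 162) and 101 CPM (78.6 to 128). None of the neighbours in this order were apart in both libraries.

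A peak upstream of Mcl1, outside any annotated gene (chr3:95650343-95651245), was called higher in NeuP-like nuclei with 47.7 CPM (35.9 to 62.3) and 52.9 CPM (42.9 to 64.5). These were 2.56 and 2.003 times the other nuclei, the latter just inside the threshold. With at least 500 genes per nucleus they were 2.72 and 1.29 times on 29 and 26 counts, with no call. cMoP-like nuclei had similar levels of 45.2 and 47.8 CPM on fewer counts. The same peak was called lower in pro-B-like (cluster 4) nuclei, with 3.47 and 5.40 CPM, 0.159 and 0.191 times the others. The peak over the start (chr3:95658382-95659198) was also highest in NeuP-like nuclei, with 103 and 75.8 CPM, but at 2.01 and 1.35 times the others it was not called. Mcl1 RNA in pro-B-like (cluster 4) nuclei was 127 and 113 CPM, 1.34- and 1.29-fold below the others, with no call. Its centre is shown with a match to GAGGAAGT, a core of PU.1 sites, on the minus strand in capitals.
Mcl1, chr3:95650644-95650943: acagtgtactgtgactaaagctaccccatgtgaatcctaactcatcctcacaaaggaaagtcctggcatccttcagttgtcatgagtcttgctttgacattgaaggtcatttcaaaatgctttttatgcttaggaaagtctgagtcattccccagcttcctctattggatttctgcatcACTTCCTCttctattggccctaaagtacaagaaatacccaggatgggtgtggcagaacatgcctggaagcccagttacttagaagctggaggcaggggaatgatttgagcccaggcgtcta
GAGGAAGT was in 9.80% of all peak centres and in 15.1% of the 311 centres of peaks called higher in NeuP-like nuclei. TTGCNNAA, a core of CEBP sites, was in 14.2% and 30.9% of them and had no match in the sequence shown.

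Bcl2l11 (ENSMUSG00000027381), the gene of the BH3-only protein BIM, lies on the plus strand of chromosome 2 (chr2:128126038-128162547). Its clearest feature was a high level in LMPP-like nuclei, with 437 CPM in library 1 (382 to 499, 220 UMIs) and 372 CPM in library 2 (312 to 440, 136 UMIs). These levels were 5.10 and 5.56 times those of all other nuclei. The next class, pro-NK/T-like, had 243 CPM (151 to 372) and 132 CPM (53.2 to 273), below the LMPP-like intervals in both libraries. LMPP-like nuclei thus stood alone at the top, and this was the 1 step in the order of Bcl2l11 that was apart in both libraries. HSC-like nuclei had 126 and 100.4 CPM.

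Bcl2l11 was called lower in GMP-like and EryP-like nuclei. GMP-like nuclei had 42.4 CPM (24.7 to 68.0) and 38.1 CPM (24.9 to 55.8), 2.86- and 2.42-fold below the other nuclei. EryP-like nuclei had 33.7 CPM (17.4 to 58.9) and 29.0 CPM (11.6 to 59.7), 3.59- and 3.05-fold below, a call kept in 3 of 7 alternatives on the same clusters. MkP-like nuclei had 6 and 2 UMIs, BaP-like nuclei 5 and 2, and NeuP-like nuclei 3 and 8, too few for a call. Set against Mcl1, which its protein binds, Bcl2l11 made up 70.7% of the UMIs of both genes in LMPP-like nuclei of library 1 (65.3 to 75.7%) and 68.0% of those of library 2 (61.1 to 74.4%). Over all nuclei this share was 41.4% (39.0 to 43.8%) and 37.5% (34.9 to 40.1%), and in EryP-like nuclei 17.1% (9.18 to 28.0%) and 16.7% (6.97 to 31.4%). Pro-NK/T-like nuclei, with 30 and 13 UMIs of both genes, had 70.0% (50.6 to 85.3%) and 53.8% (25.1 to 80.8%), which overlapped the LMPP-like intervals in both libraries. This share, too, was added after the levels were seen.

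Chromatin within 50 kb of the Bcl2l11 start did not show the LMPP-like difference. Of its 18 peaks, 2 had 100 counts in LMPP-like nuclei of each library, and the larger fold was 1.10 and 1.22, at the peak over the start (chr2:128125436-128126358). The sum over all 18 peaks was 1.04 and 1.11 times that of the other nuclei. The peaks called higher were in other classes. In GMP-like nuclei, where the RNA was low, a peak in the gene body 11.1 kb downstream (chr2:128136691-128137621) had 16.8 and 19.9 CPM, 2.61 and 2.22 times the others. In EryP-like nuclei, the peak over the start was at 28.4 and 27.5 CPM, the lowest of all classes in both libraries and 0.585 and 0.622 times the other nuclei.

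In pro-B-like (cluster 4) nuclei, 3 peaks of Bcl2l11 were called higher while its RNA was not. The RNA was at 65.8 CPM (49.99 to 85.1) and 56.3 CPM (32.2 to 91.4), 0.527 and 0.643 times the others. The largest fold was that of a peak 31.6 kb upstream in the body of Acoxl (chr2:128094056-128094906), with 24.2 CPM (21.0 to 27.8) and 23.6 CPM (18.4 to 29.7), or 8.90 and 12.7 times the others. Outside the pro-B-like and B-like clusters, its highest level was 7.47 and 8.26 CPM in MkP-like nuclei. The other peaks lay 27.1 and 33.2 kb downstream (chr2:128152825-128153412 and chr2:128158759-128159664), with folds of 2.97 and 3.46 and of 5.58 and 7.07. Of all peaks tested in this class, 13.6% were called higher.

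Bbc3 (ENSMUSG00000002083), the gene of PUMA, a BH3-only protein induced by p53, lies on the plus strand of chromosome 7 (chr7:16308393-16318205). It had 107 and 99 UMIs in all and 0 calls in 2 pairs. The unnamed cluster 1 had 30.8 CPM (19.1 to 47.1) and 26.5 CPM (17.98 to 37.6), 1.86 and 1.83 times the others, and cluster 0 had 25.0 and 26.9 CPM. Pro-B-like (cluster 4) nuclei had 4 and 1 UMIs, or 4.54 CPM (1.24 to 11.6) and 3.52 CPM (0.0890 to 19.6), with too few UMIs for a call. The intervals of cluster 1 and pro-B-like (cluster 4) nuclei were apart in library 1 and overlapped in library 2.

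A peak 34.1 kb upstream of Bbc3, in the body of Ccdc9 and over an exon of that gene (chr7:16275116-16275976), was called higher in EryP-like nuclei. Its level there, 32.9 CPM (26.6 to 40.3) and 34.5 CPM (27.2 to 43.2), was 4.32 and 4.30 times the other nuclei. cDCP-like nuclei followed with 26.1 and 19.0 CPM and MkP-like nuclei with 22.8 and 15.1. Bbc3 RNA in EryP-like nuclei was 16.9 and 8.28 CPM on 6 and 2 UMIs, so no difference in RNA was detectable at this depth. A second peak, in the gene body 3.19 kb downstream of the start (chr7:16312414-16313193), was called lower in pro-B-like (cluster 4) nuclei with 7.29 and 6.88 CPM and in LMPP-like nuclei with 7.21 and 9.73. The central 300 bases of the EryP-like peak held 1 AGATAA, the core bound by GATA1, and 1 CCACACCC, the core bound by KLF1, and are not printed because they cross an untranslated region of Ccdc9. AGATAA was in 13.3% of all peak centres and in 50.4% of the 466 centres of peaks called higher in EryP-like nuclei. CCACACCC was in 3.71% and 5.58% of them.

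Bmf (ENSMUSG00000040093), a BH3-only gene whose protein is tied to the cytoskeleton, lies on the minus strand of chromosome 2 (chr2:118528757-118549687) and was barely detected, with 20 and 13 UMIs. B-like nuclei had 3 UMIs in each library, pro-B-like (cluster 4) nuclei 4 and 2, and cluster 6 had 6 and 0. No level could be compared on so few UMIs. Peaks within 50 kb of its start had more counts, and 4 of 65 pairs were called higher (6.15%), against 3.03% of all pairs. Of all peaks tested in pro-B-like (cluster 4) nuclei, 13.6% were called higher. Whether any peak here acts on Bmf was not tested. A peak 47.6 kb downstream of the start interval and past the gene's end, over the start of the noncoding RNA gene Gm32684 in RefSeq (chr2:118499009-118499892), had 66.8 CPM (61.4 to 72.6) and 70.4 CPM (61.3 to 80.5) in pro-B-like (cluster 4) nuclei, 5.36 and 5.804 times the others. Pro-B-like (cluster 10) nuclei had 73.7 and 68.9 and B-like nuclei 33.0 and 44.3 CPM, and the highest other class reached 19.8 and 21.3. A second peak, 2.49 kb downstream (chr2:118544092-118544988), was at 2.19 and 2.07 times the others in the same class, just past the threshold. A pair of peaks 33.8 kb downstream and 17.7 kb upstream was called higher in cluster 1, with folds between 2.17 and 2.77.

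**Figure D4:**
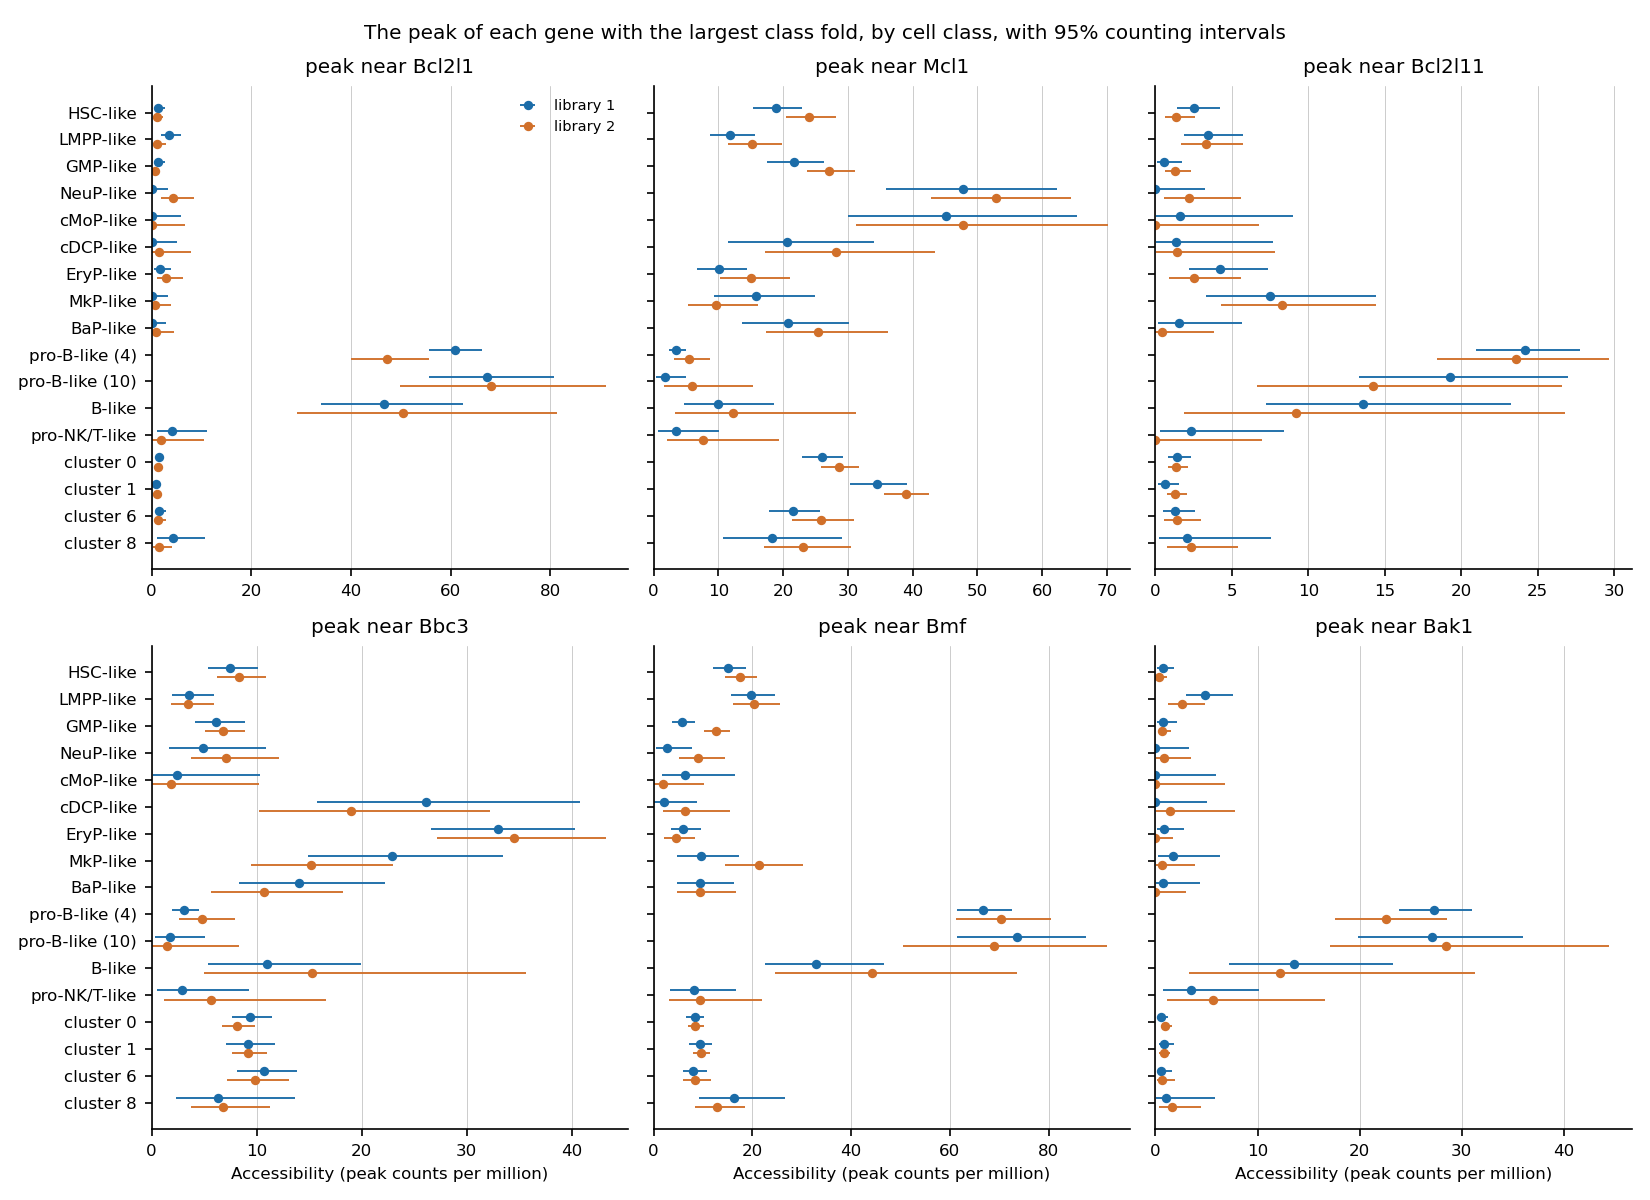
Accessibility of the peak with the largest class fold near 6 of the genes (x axis, CPM in peaks) in the 17 classes (y axis), with points for library 1 and library 2 and bars for 95% counting intervals. The peaks near Bcl2l1, Bcl2l11, Bmf and Bak1 are highest in the pro-B-like clusters, that near Mcl1 in NeuP-like and cMoP-like and that near Bbc3 in EryP-like nuclei.

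Bax (ENSMUSG00000003873) and Bak1 (ENSMUSG00000057789), the pore-forming effectors, lie on the minus strands of chromosome 7 (chr7:45461697-45466898) and chromosome 17 (chr17:27019810-27029009). Bax had 80 and 92 UMIs and no class with enough of them. Its levels in the larger clusters were 11.96 and 16.0 CPM in cluster 0, 13.2 and 13.7 CPM in cluster 1 and 13.6 and 17.6 CPM in pro-B-like (cluster 4) nuclei, with overlapping intervals. Bak1 had 193 and 238 UMIs. It was called in none of its 3 pairs, HSC-like nuclei with 44.2 and 37.6 CPM, cluster 0 with 28.3 and 40.3 CPM and cluster 1 with 29.3 and 34.2 CPM. cDCP-like nuclei had its highest mean, with 69.1 and 92.6 CPM on 5 and 6 UMIs. These levels were 79.2 and 53.0 CPM with at least 500 genes per nucleus, so that the order of the libraries turned. Neither effector gene showed a class that stood apart at this depth. Gm45808 on the same strand overlaps Bax and Ggnbp1 on the opposite strand overlaps Bak1, so counts of both genes are uncertain where reads could be shared.

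Of 67 pairs of a Bak1 peak and a class with enough counts, 2 were called higher (2.99%), against 3.03% of all pairs. Of 74 pairs of Bax, 2 were called lower (2.70%), against 1.71%. All were in pro-B-like (cluster 4) nuclei, where 13.6% of all peaks tested were called higher and 5.72% lower. A peak 45.5 kb downstream of the Bak1 start, in the bodies of Zbtb9 and Ggnbp1 (chr17:26982792-26983673), had 27.2 CPM (23.8 to 31.0) and 22.6 CPM (17.6 to 28.6) in pro-B-like (cluster 4) nuclei, 11.9 and 17.99 times the others. Another, 11.4 kb upstream (chr17:27039968-27040811), was at 2.97 and 3.99 times the others in that class. Bak1 RNA in pro-B-like (cluster 4) nuclei was 36.3 and 59.8 CPM, 1.12 and 1.51 times the others. Near Bax, a peak 9.35 kb downstream of the start (chr7:45457037-45457937) was at 5.74 and 3.44 CPM in these nuclei, 0.287 and 0.158 times the others. A second (chr7:45460803-45461556) was at 0.178 and 0.124 times the others and lies within 1 kb of the start of Ftl1, a ferritin gene. Bax RNA in the class was 0.998 and 1.13 times the others, on 12 and 5 UMIs.

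Genes with the most similar pattern were sought among 4108 genes that had 200 or more UMIs per library, by the Pearson correlation of log2(CPM + 1) across 17 classes, averaged over both libraries. For Bcl2 these were Slc9a9, Osbpl3 and Arhgef18, with means of 0.68, 0.67 and 0.66. For Mcl1 they were Lyn, Ptprj and Qk, with 0.76, 0.71 and 0.70, and for Bcl2l11 they were Notch1, Eml4 and Satb1, with 0.76, 0.74 and 0.74. Notch1 and Satb1 were among the markers that named the LMPP-like class. Among the members themselves, the largest mean was 0.52 for Bcl2l1 and Bmf and the smallest was -0.33 for Bcl2l1 and Bak1. The points of each correlation share library and depth, and those of the sparse genes rest on few UMIs.

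Other genes of the pathway, from lists of antiapoptotic, effector, BH3-only, caspase, caspase inhibitor, upstream and mitochondrial genes, were counted by the same rule. Of 44 listed symbols, 43 were in the matrix, and the other, Mule, is an alias of Huwe1, which was also listed. A class with enough UMIs was found for 27 of the 43 genes. In 193 pairs, 2 were called higher (1.04%) and 2 lower (1.04%), against 2.81% and 2.71% of all pairs. Birc5, the gene of survivin with roles in cell division and caspase inhibition, had 169 and 158 CPM in pro-B-like (cluster 4) nuclei, 2.52 and 2.24 times the others. Pmaip1, the gene of NOXA, a BH3-only protein that binds MCL1, was lower in HSC-like nuclei with 2 and 10 UMIs, at 0.0987 and 0.359 times the others. Huwe1, the gene of a ubiquitin ligase that targets MCL1, was lower in cMoP-like nuclei with 21 and 8 UMIs.

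The libraries were then compared over all nuclei, with no direction tied to ligature. Over 10611 genes with 20 or more UMIs per library, the median log2 ratio (library 2 to library 1) was -0.35. Bcl2 had 287 CPM in library 1 (273 to 301, 1682 UMIs) and 142 CPM in library 2 (133 to 152, 834 UMIs), which gave a log2 ratio of -1.01, or -0.67 relative to that shift. Bcl2l1 had 22.8 CPM (19.1 to 27.1) and 10.7 CPM (8.24 to 13.7), a log2 ratio of -1.09. These 2 of 8 members were called lower in library 2 at 2-fold, against 6.87% of 11562 genes, and 0 were called higher, against 1.99%. The log2 ratios of the other members were -0.19 for Mcl1, -0.43 for Bcl2l11, -0.11 for Bbc3, 0.20 for Bax, 0.30 for Bak1 and -0.62 for Bmf, the last on 33 UMIs in both libraries together. Another scaling moves the ratios of all genes by one amount, which took values near 0 across it, to -0.08 for Bax with CPM over all gene rows and 0.05 for Bbc3 with median-of-ratios scaling. With one set of class shares, the log2 ratio of Bmf was 0.07.

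Class shares enter such sums, since pro-B-like (cluster 4) nuclei were 13.4% of library 1 and 4.95% of library 2. With class levels weighted by one set of shares, an alternative added after the values were seen, the log2 ratio of Bcl2l1 was -0.46 and that of Bcl2 -0.98, and neither was called. With median-of-ratios scaling, which moves all genes alike, the log2 ratios were -0.85 for Bcl2 and -0.93 for Bcl2l1, also short of 2-fold. Bcl2 was lower in library 2 in 14 of 17 classes, and of the 13 classes with at least 20 UMIs in the larger library, 9 had intervals apart. Pro-B-like (cluster 10), cMoP-like and B-like nuclei had a higher level in library 2, on 3 to 18 UMIs each and with overlapping intervals. The ratio of library 1 to library 2 was 2.17 in cluster 0, 1.86 in HSC-like, 1.91 in LMPP-like and 2.82 in GMP-like nuclei. The median gene was also lower in library 2 in these classes, with log2 ratios of -0.43, -0.34, -0.28 and -0.51 in the same order. Relative to the median gene of its class, Bcl2 was lower in library 2 in 15 of 17 classes, by log2 ratios of -0.69, -0.55, -0.66 and -0.99 in those 4. The Bcl2 difference was thus present within most classes, whereas that of Bcl2l1 was smaller with the class shares held equal. As each library is 1 pool, mice, handling and sequencing cannot be told apart from the label of the pool.

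**Figure D5:**
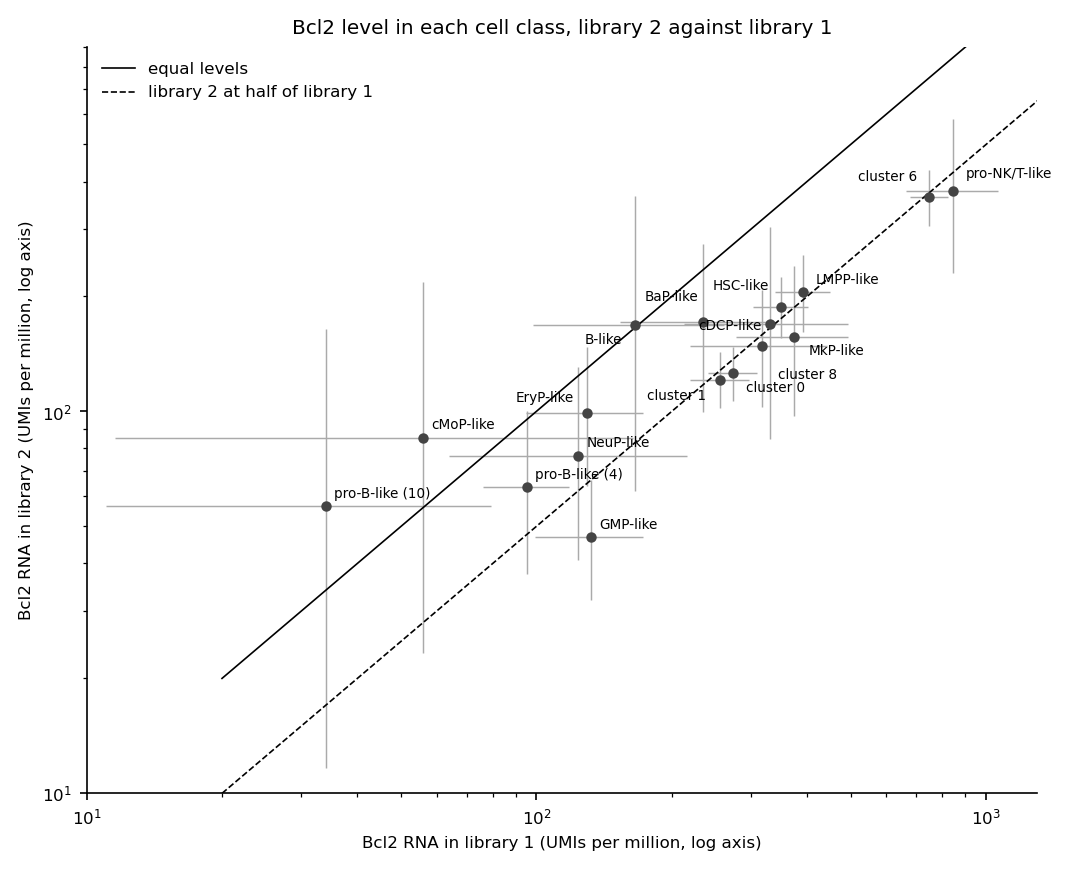
Bcl2 RNA level in library 2 (y axis, CPM, log scale) against library 1 (x axis, log scale) in 17 classes, with bars for 95% counting intervals, a solid line for equal levels and a dashed line for library 2 at 0.5 times library 1. Of the points, 14 lie below the solid line, and cluster 6 and pro-NK/T-like nuclei are the highest in both libraries.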

How the data were processed

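The data were gene UMI counts and ATAC counts in peaks for single nuclei, deposited by the authors as 1 matrix with no normalization, with alignment to mm10. The submitters' processing notes name Cell Ranger ARC 2.0.0, Seurat 4.0.3 and Signac 1.3.0. Of 18961 barcodes, 13619 passed the limits on genes and peak counts. Their peak counts came to 118239764 and 128699726, and medians per nucleus to 19471 and 16284. Of the peak entries above 0, 82.7% were even numbers, so intervals of peak levels were computed on pairs of counts. RNA and ATAC components (30 each) were aligned between the libraries by reciprocal anchors, joined in a weighted nearest-neighbour graph and clustered at resolution 0.8 (Seurat 5.3.0, R 4.3.3), with 19 family genes and 165 peaks left out, and clusters were named from marker lists. Counts were summed by class and library. The RNA and the ATAC sample of a group come from 1 pool and barcodes carry no sample names, so no test between groups was made. The lists of members, markers and pathway genes and the rules were chosen with earlier results of these data known, including those of a first analysis of the whole series. Genes named in the text are the members, pathway genes with a call and the 3 genes most similar to a member, and 1 pathway result is not reported here. No nuclei were removed as doublets, and an alternative removed those with the highest Scrublet scores. Distances are from a peak's middle to the nearest annotated transcript start of the gene. The calling steps were tested on simulated data. Sequences come from the RefSeq GRCm38 genome. Alternatives changed the scaling, nucleus filters, clustering, fold, count limits and window.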

Additional observations from a re-analysis of the deposited data

How the results depend on the processing

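The main values were 7 member RNA calls across classes, 25 member peak calls, 2 members called between libraries and 4 pathway RNA calls. With at least 500 genes per nucleus, which left 6157 nuclei, there were 3 peak calls, with 23 of the 25 main pairs still past 2-fold in both libraries, 1 member called between libraries and 1 pathway call. With clusters at resolution 0.4 there were 46 peak calls. A 1.5-fold rule gave 11 member calls, 56 peak calls and 17 pathway calls. The member calls were 4 higher and 7 lower, while 6.22% of all gene and class pairs were called higher and 6.36% lower. Shares over all peaks were taken in the main setting only. A limit of 50 UMIs left 3 member calls, a limit of 200 counts left 2 peak calls and a window of 10 kb left 7. Median-of-ratios scaling and one set of class shares, the latter added after the values were seen, each left 0 members called between libraries. No called value changed direction, while the log2 ratios between libraries of Bax, Bbc3 and Bmf, all under 1 in size, each changed sign in 1 setting, for Bax and Bbc3 by a shift common to all genes. Of 56 alternatives to single values, 41 stayed within the counting interval and 15 moved beyond it. Of 12 alternatives for RNA calls, Bcl2 in pro-B-like (cluster 4) nuclei was called in 11, Bcl2l11 in LMPP-like nuclei in 10 and Bcl2 in pro-NK/T-like nuclei in 7. Bcl2 in GMP-like nuclei, Bcl2l11 in GMP-like nuclei and Bcl2l11 in EryP-like nuclei were each called in 8. In the clusterings at resolution 0.4 and from RNA alone, 99.4% and 90.3% of LMPP-like nuclei fell into a cluster named HSC-like, in which Bcl2l11 was called higher. No paired analysis was possible because the barcodes carry no sample or replicate number and each library is 1 pool. Depth limits Bcl2l1, Bax, Bbc3 and Bmf, which had 20 to 134 UMIs in library 1, and a level of 0 in a small class is not evidence of absence.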

Other observations

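Bok, another pore-forming family gene, had 30 UMIs in library 1 and 7 in library 2, or 5.11 and 1.19 CPM. Bcl2l2, the gene of the antiapoptotic protein BCL-W, had 66 and 57 UMIs. Of the listed Bcl2a1 genes, Bcl2a1a had none in either library, Bcl2a1b had 6 and 4 UMIs and Bcl2a1d had 0 and 1. With the whole span of each gene and 50 kb on both sides taken, an alternative added after the values were seen, 237 peaks were counted. They gave 627 pairs with enough counts and 33 calls, 19 of them higher and 14 lower. Of all 237150 peak and class pairs, 3.03% were called higher and 1.71% lower. Bcl2 then had 46 peaks, of which 1 was called higher, in cluster 0 at 2.33 and 2.05 times the other nuclei (chr1:106539849-106540735, near the 3' end of the gene). In the flank past the 3' end, 3 peaks with at least 100 counts were highest in cluster 6, the class with high Bcl2 RNA, among the classes with enough counts. They were at 1.39 and 1.36 times (chr1:106511357-106512267), 1.93 and 1.72 times (chr1:106515347-106516273) and 1.94 and 1.59 times the other nuclei (chr1:106517425-106518349), short of a call, and these peaks were part of the clustering. The other peaks added for Bcl2 with enough counts in some class were highest in cluster 0 or cluster 1. Past the 3' end of Bcl2l11, a peak (chr2:128189816-128190594) was highest in LMPP-like nuclei among the classes with enough counts. It was at 1.54 and 1.59 times the others on 134 and 126 counts, short of a call, and was part of the clustering. The other peaks added for Bcl2l11 with enough counts in some class were highest in cluster 0, cluster 1 and GMP-like nuclei. Near Bmf, a further peak (chr2:118490981-118491841) was called higher in pro-B-like (cluster 4) nuclei, at 3.31 and 4.05 times the others.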
